A study of Mus musculus with 24 samples.

Results

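The 34 genes described here carry out glycolysis or belong to the transcriptional response to low oxygen. They were chosen by name and looked up as gene symbols in the count table, where all 34 were present among 52997 symbols. All 34 also passed the filter on low counts, which left 16263 genes in the tests. They comprise 17 genes of the glycolytic steps from hexokinase to lactate dehydrogenase, 5 switches of glycolytic flux and of pyruvate entry into mitochondria, 4 genes of oxygen sensing (prolyl hydroxylases and the alpha subunits of hypoxia-inducible factor, HIF) and 8 hypoxia targets.

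RNA sequencing covered 4 populations sorted from hindlimb skeletal muscle of C57BL/6 mice that were 8 weeks old. Each population came from uninjured muscle and from muscle at day 1 after cardiotoxin, a venom toxin that destroys muscle fibers, with 3 libraries in each of the 8 groups. The sorts took endothelial cells as CD31+, hematopoietic cells as CD45+, mesenchymal stromal cells (MSC) as Sca1+ PDGFRa+ cells without CD31 or CD45, and satellite cells, the muscle stem cells (MuSC), as Vcam1+ cells without CD31, CD45 or Sca1. About 1000 cells were sorted a second time for each library, and no transgene or genetic change was named for any group. The labels call the libraries biological replicates without stating which came from the same mouse, so each p-value refers to the spread among the libraries at hand. CD45+ cells are a mix of leukocyte types that differ in metabolism, and in such bulk libraries fewer cells of a type and less RNA per cell cannot be told apart.

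Glycolysis splits glucose to pyruvate in the cytosol and yields ATP without oxygen, and lactate dehydrogenase regenerates the cofactor it consumes. When oxygen is scarce, prolyl hydroxylases no longer mark HIF alpha subunits for destruction, and HIF then binds short DNA elements and raises transcription of glycolytic enzymes, glucose transporters and genes of mitophagy. In muscle, quiescent satellite cells rely largely on oxidation of fatty acids and turn to glycolysis when they are activated, endothelial cells depend on glycolysis even with oxygen at hand, and neutrophils and inflammatory macrophages are strongly glycolytic.

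Total counts per library ranged from 2301000 to 7650000, and the upper limit for a gene with a count of 0, set at 3 counts, was 0.389 to 1.02 CPM (the depth-scaled count unit, here on TMM-scaled library sizes). Sums of the marker genes of each sorted type were highest in their own population, with 8 markers a type, all of them detected in every library of that population. Markers of other cells moved with injury in several groups. The 15 muscle fiber genes summed to medians of 192, 199.8, 393 and 719 CPM in uninjured CD31+, CD45+, MSC and MuSC, and to 80.3, 39.4, 27.3 and 372 CPM in the injured groups. In injured MSC, 18 of the 45 values of these genes over the 3 libraries were 0, and none of the 45 was 0 in injured MuSC. The 8 stromal markers summed to 153170 to 197558 CPM in uninjured MSC and to 37483 to 54346 CPM in injured MSC. In MuSC the stromal markers summed to 4649 to 5364 CPM uninjured and 1944 to 2758 CPM injured, while 3 of the 8 passed as higher and 2 as lower. The 6 mural cell markers summed to 1131 to 1961 CPM in uninjured and 471 to 967 CPM in injured MuSC. Their sums in CD31+ were 538 to 775 CPM uninjured and 291 to 480 CPM injured. The 8 leukocyte markers summed to 5.95 to 9.60 CPM in uninjured CD31+ cells and to 357, 26.4 and 10.6 CPM in injured CD31+ replicates 1, 2 and 3, where 4 of the 8 rose and none was at 0. Within CD45+ cells the leukocyte marker S100a8, of neutrophils, rose (log2 fold change 2.08, SE 0.38, adjusted p = 0.000467 by edgeR) and Cd74, of antigen-presenting cells, fell (-2.75, SE 0.80, adjusted p = 0.0131). The part of any of these transcripts in the results for the 34 genes was not tested.

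The first question was how injury changed the 17 genes of the glycolytic steps. The pathway rose in large part in every population, with 11 of 17 genes in each of CD31+, MSC and MuSC, and 10 of 17 among CD45+ cells. In CD31+ 3 of the 11, Hk1, Hk2 and Tpi1, did not pass without injured replicate 1, the library with the most leukocyte transcripts (adjusted p = 0.0625, 0.385 and 0.219). The step genes that fell were Ldhb in CD31+ and MuSC, Pfkm in CD45+, Pfkp in MSC and Hk1 in MuSC. The median log2 fold change of the 17 genes was 0.50, 1.26, 1.30 and 1.46 for CD31+, CD45+, MSC and MuSC, against -0.04, -0.12, -0.22 and -0.04 over all genes tested. Their summed counts took 0.305 ± 0.0187% (SD, n = 3) of a library in uninjured and 0.530 ± 0.0372% in injured CD31+ cells. CD45+ libraries went from 0.432 ± 0.0366% to 1.05 ± 0.0617%, MSC libraries from 0.262 ± 0.0180% to 0.802 ± 0.0494% and MuSC libraries from 0.566 ± 0.0171% to 1.03 ± 0.0239%. Every injured library lay above every uninjured library of its population.

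**Figure D1:**
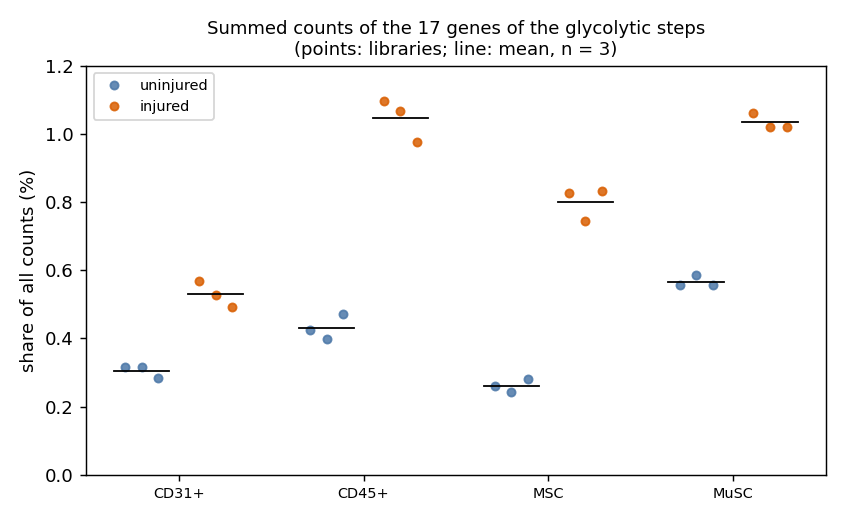
Share of all counts in a library (%, vertical axis) taken by the 17 genes of the glycolytic steps, in uninjured and injured libraries of the 4 populations; points are libraries and lines are means (n = 3). These shares are not TMM-scaled. Injured CD31+ libraries lie between 0.493% and 0.568%, and injured CD45+ and MuSC libraries lie near 1%. In TMM-scaled CPM the sum of these genes was 4592 to 5611 in injured CD31+ and 4488 to 4570 in uninjured MuSC libraries. It was 11603 to 13158 CPM in injured CD45+ and 9328 to 9885 CPM in injured MuSC libraries.

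Across all 34 genes, 12 were higher and 8 lower after injury in CD31+, where 14.1% of all genes tested rose and 9.3% fell. For CD45+ the counts were 18 higher and 1 lower, with 16% and 18.5% of all genes. The 13 higher and 7 lower members of MSC stand beside 18.3% and 23.6% of all genes, and the 16 higher and 6 lower members of MuSC beside 21.4% and 17.5%. The members' share of rises was therefore above the background in each population, while their share of falls was above it in CD31+ (8 of 34, 23.5%), near it in MSC and MuSC, and below it in CD45+. With RLE scaling in place of TMM, the split over all genes in CD31+ cells went from 2298 higher and 1512 lower to 1926 higher and 2058 lower, and the members' split from 12 and 8 to 10 and 8. Without injured CD31+ replicate 1, the library with most leukocyte transcripts, 9 members rose and 8 fell there, and without uninjured or injured replicate 3 the number that fell was 5. Counted by libraries alone, injured and uninjured values did not overlap for 23, 24, 27 and 23 members of CD31+, CD45+, MSC and MuSC, against 37.3%, 43%, 55% and 49.5% of all genes.

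**Figure D2:**
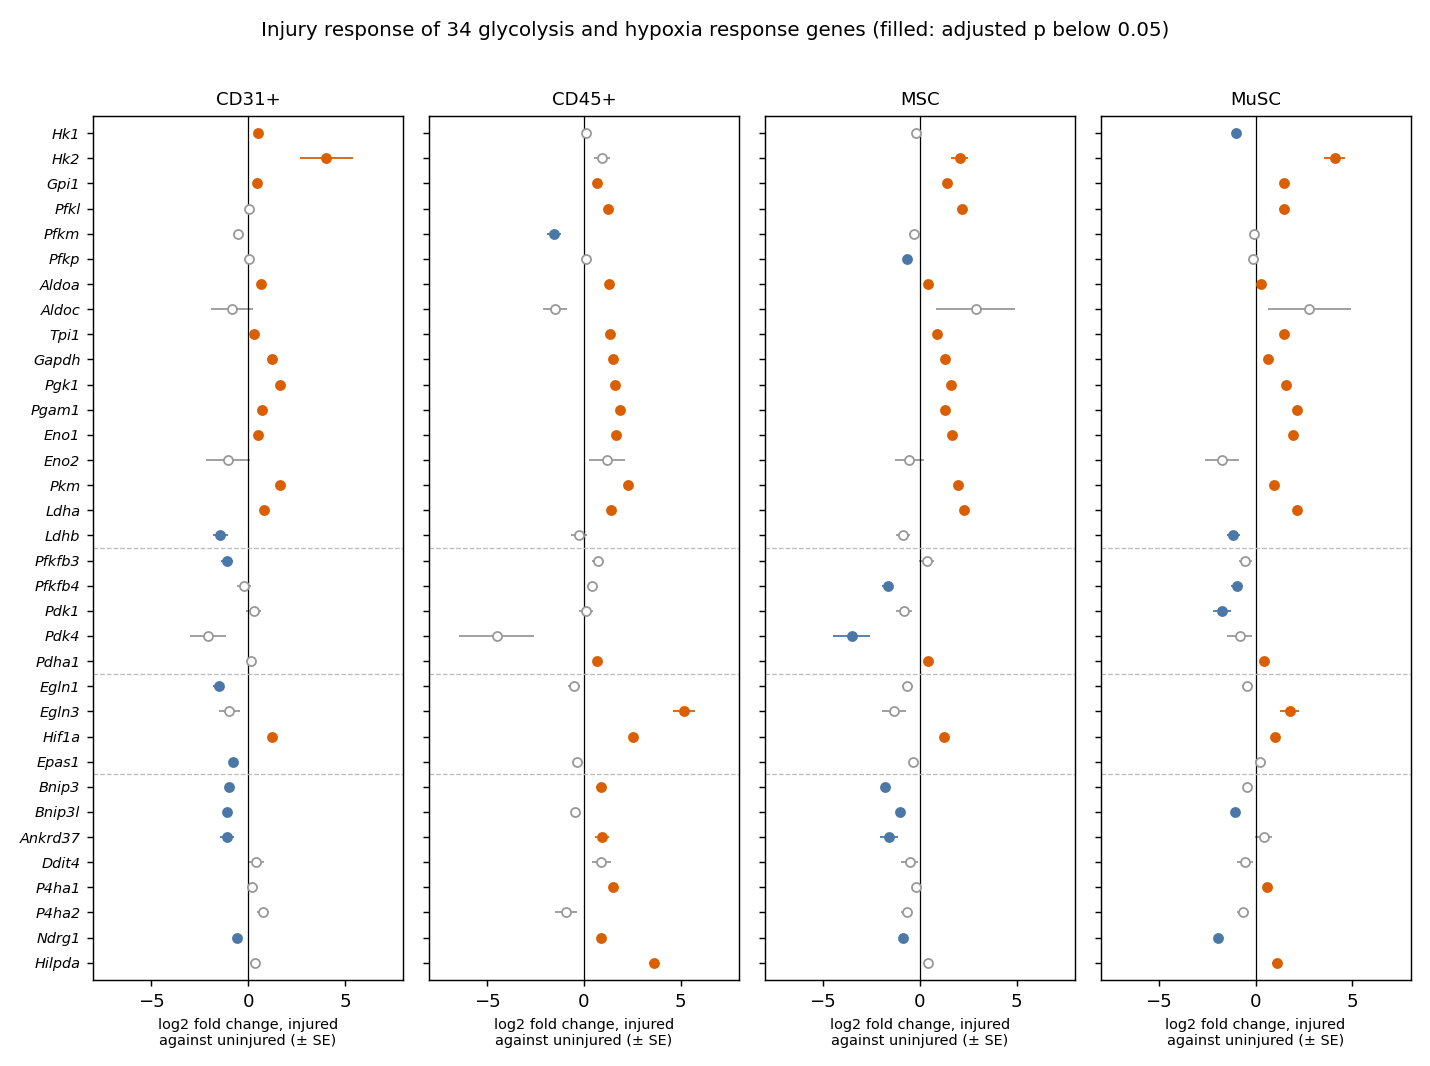
Log2 fold change of each of the 34 genes, injured against uninjured (horizontal axes, ± SE from the edgeR fit), in the 4 populations; filled points passed an adjusted p of 0.05 and dashed lines separate glycolytic steps, switches, oxygen sensing and hypoxia targets. The 9 enzymes from Gpi1 to Ldha that passed in every panel lie to the right of 0, while among the 8 targets 4 passed as lower in each of CD31+ and MSC and 5 as higher in CD45+.

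A set of 10 members rose in all 4 populations, namely Gpi1, Aldoa, Tpi1, Gapdh, Pgk1, Pgam1, Eno1, Pkm, Ldha and Hif1a. They are 29.4% of the 34, and 814 of all genes tested (5.01%) did the same. With RLE scaling, or with DESeq2, the number was 8, because Tpi1 in CD31+ (log2 0.20, adjusted p = 0.182 with RLE in edgeR) and Aldoa in MuSC (log2 0.18, adjusted p = 0.104) no longer passed. Tpi1 in CD31+ also did not pass without uninjured replicate 1 (adjusted p = 0.0694), uninjured replicate 3 (0.109) or injured replicate 1 (0.219). The 9 enzymes among them cover every step of the trunk of the pathway other than the kinase steps at hexokinase and phosphofructokinase.

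Pgk1, phosphoglycerate kinase, forms the first ATP of the payoff phase and changed by nearly the same amount everywhere. CD31+ libraries held 34.9, 41.2 and 33.0 CPM uninjured and 120.3, 126 and 91.6 CPM injured, and CD45+ libraries 59.8, 59.3 and 60.7 CPM uninjured and 177, 191 and 180.3 CPM injured. MSC libraries held 57.5, 33.8 and 52.0 CPM uninjured and 146, 126 and 172 CPM injured, and MuSC libraries 65.4, 57.6 and 48.7 CPM uninjured and 186, 156 and 165 CPM injured. No injured value came near an uninjured one. The log2 fold changes were 1.63, 1.61, 1.63 and 1.56 for CD31+, CD45+, MSC and MuSC (SE 0.17 in each), with adjusted p between 3.69e-08 and 1.33e-07 in edgeR's quasi-likelihood test, and a difference between populations was not detected (adjusted p = 0.997).

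Ldha, the lactate dehydrogenase form that favors making lactate from pyruvate, had a response that differed in size. It stood at 594, 590.0 and 568 CPM in uninjured and 1118, 1055 and 972 CPM in injured CD31+ libraries, and at 775, 675 and 728 CPM and 2089.8, 1857 and 1777 CPM in those of CD45+. In MSC it went from 539.9, 459.9 and 545 CPM to 2678, 2338 and 2569 CPM, and in MuSC from 589, 705 and 535 CPM to 2779, 2779 and 2606 CPM. The conditions did not overlap in any population, and every injured CD31+ library lay below every injured library of the other 3. The log2 fold change was 0.84 for CD31+, 1.39 for CD45+, 2.30 for MSC and 2.16 for MuSC (SE 0.10 in each). The response was smaller in CD31+ than in the mean of the other 3 by 1.10 on the log2 scale (adjusted p = 9.52e-07) and larger in MSC by 0.83 (adjusted p = 2.31e-05).

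Pkm, pyruvate kinase of muscle and most other tissues, makes the pyruvate and the last ATP of the pathway. Its values in CD45+ were 806, 689.8 and 949 CPM uninjured and 3999, 4190.0 and 3557 CPM injured. In MuSC they were 995, 946 and 1059.9 CPM uninjured and 2099, 1888 and 1838 CPM injured. The CD45+ change was the largest of the 4 (log2 2.26, SE 0.12) and the MuSC change the smallest (0.96, SE 0.11), and CD31+ (1.66) and MSC (1.96) lay between. MuSC differed from the mean of the other 3 by -1.01 (adjusted p = 1.24e-05).

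Other enzymes of the trunk had their smallest rise in CD31+ cells. Eno1, the common enolase, rose by 0.50 on the log2 scale in CD31+ against 1.66, 1.68 and 1.92 in CD45+, MSC and MuSC. Pgam1, phosphoglycerate mutase, rose by 0.70 against 1.88, 1.30 and 2.12, and Tpi1, triosephosphate isomerase, by 0.31 against 1.37, 0.88 and 1.47. Gpi1, which makes fructose 6-phosphate, rose by 0.47 and 0.67 in CD31+ and CD45+ and by 1.39 and 1.46 in MSC and MuSC. The CD31+ response of each of these 4 genes was below the mean of the other 3 (adjusted p between 9.34e-07 and 0.000728).

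Aldoa and Gapdh departed from that order. Aldoa, the aldolase that is also abundant in muscle fibers, rose most in CD45+ cells, from 799, 783 and 793 CPM to 2022, 2019 and 1855 CPM (log2 1.31, SE 0.09), and least in MuSC, from 1351, 1409.7 and 1416 CPM to 1619, 1652 and 1800.1 CPM (0.28, SE 0.09, adjusted p = 0.0133). Without injured MuSC replicate 3 the MuSC change was 0.24 (adjusted p = 0.0657). Gapdh, the dehydrogenase often used as a reference transcript, rose by 1.24 in CD31+, 1.30 in MSC and 0.62 in MuSC, and from a mean of 383 to 1083 CPM in CD45+ (adjusted p = 2.57e-10), so it was not constant across these groups. Uninjured MuSC already held 599, 625 and 558 CPM of Gapdh, more than injured MSC replicates 2 and 3 at 513 and 528 CPM.

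**Figure D3:**
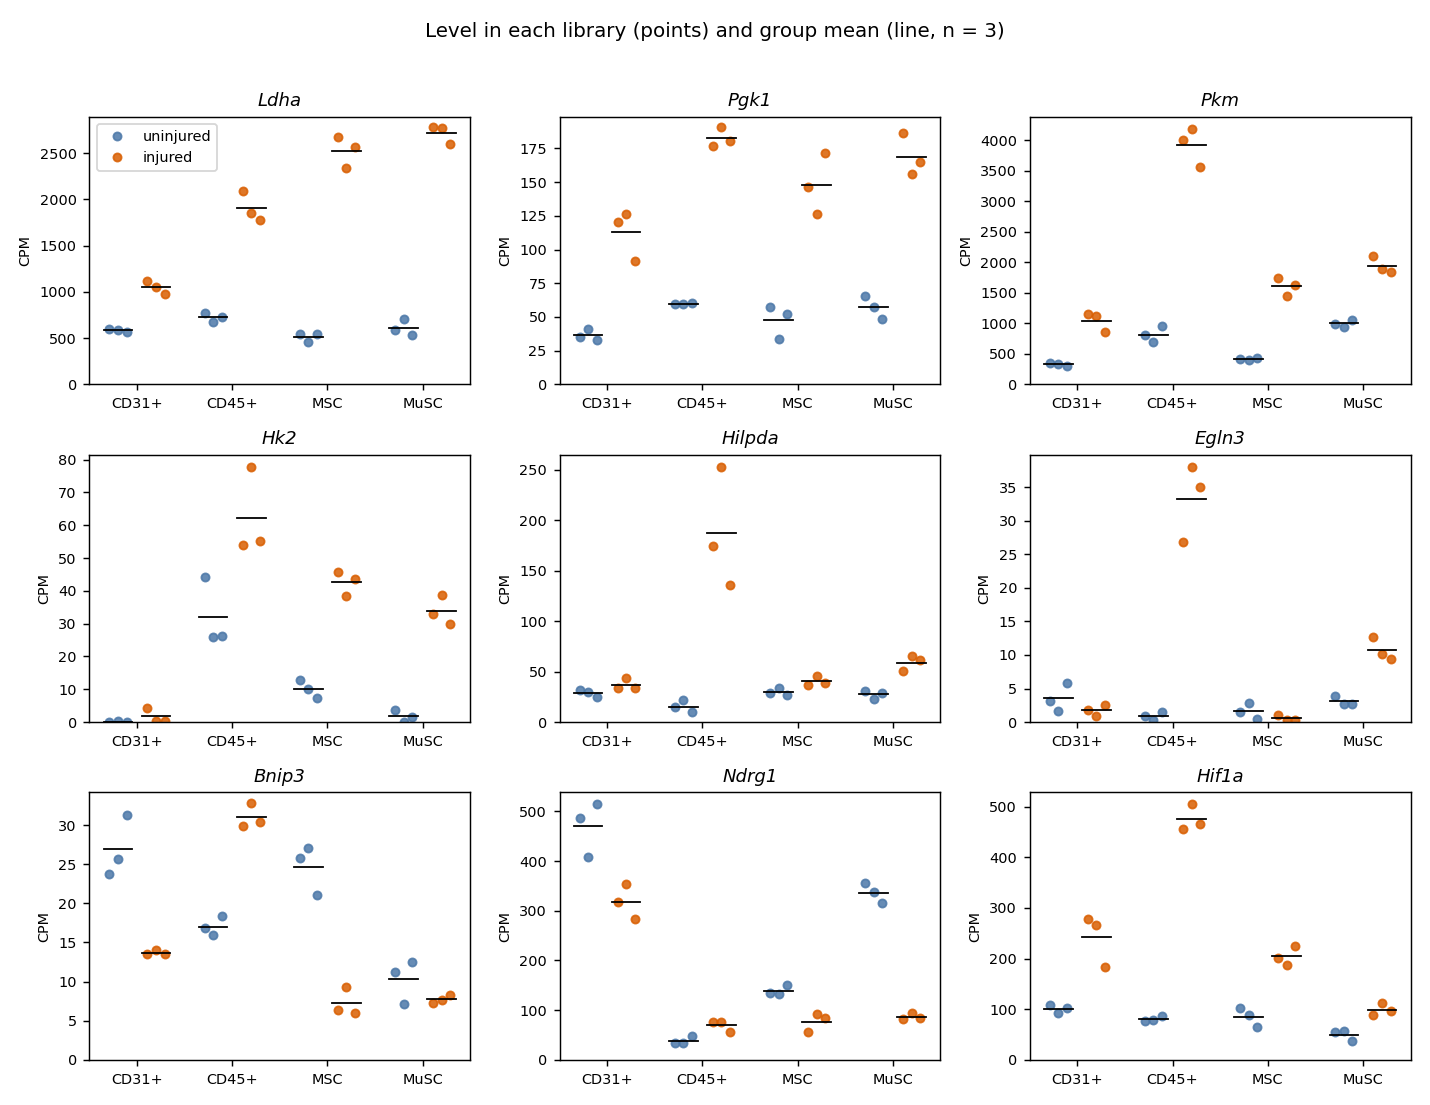
Level in CPM (vertical axes, each from 0) of 9 of the genes in every library, uninjured and injured, by population; points are libraries and lines are means (n = 3). Pgk1 shifts by a like factor in each population, Ldha in injured CD31+ cells lies below the other 3 injured groups, Hilpda and Egln3 are highest in injured CD45+ cells, and Bnip3 and Ndrg1 go up in CD45+ cells where they go down in CD31+ and MSC.

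HIF binds the core ACGTG or GCGTG, and the stretches before the transcript starts of 4 genes are shown because they hold several such cores and belong to genes with the 2 kinds of response, Pgk1, Ldha and Pgam1, which rose in all 4 populations, and Bnip3, which fell in CD31+ and MSC and rose in CD45+. The sequences are from RefSeq on GRCm38.p6, are read 5′ to 3′ on the strand of the gene and lie outside annotated exons. Pgk1 is at chrX:106186938-106186985 on the plus strand, Ldha at chr7:46845647-46845786 on the plus strand, Pgam1 at chr19:41911684-41911799 on the plus strand and Bnip3 at chr7:138909525-138909635 on the minus strand. Capitals mark each core, on either strand, and CACGTG holds the core on both strands and counts as 2.
Pgk1: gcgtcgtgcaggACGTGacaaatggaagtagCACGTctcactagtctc
Ldha: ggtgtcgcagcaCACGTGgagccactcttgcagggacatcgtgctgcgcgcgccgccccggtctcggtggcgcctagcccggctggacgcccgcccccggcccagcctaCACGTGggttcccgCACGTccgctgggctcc
Pgam1: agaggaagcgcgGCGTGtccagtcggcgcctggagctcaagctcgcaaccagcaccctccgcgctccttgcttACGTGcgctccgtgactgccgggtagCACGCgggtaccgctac
Bnip3: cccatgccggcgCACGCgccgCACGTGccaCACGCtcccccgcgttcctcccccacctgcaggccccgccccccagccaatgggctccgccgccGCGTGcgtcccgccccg
Ldha and Bnip3 each hold 5 cores in these stretches, Pgam1 holds 3 and Pgk1 holds 2. RefSeq windows of 250 bases before the start were matched for 31 of the 34 genes, as 45 windows, and 36 of the 45 (80%) held a core. The share was 52.7% of the 14548 windows of genes tested and 38.6% of all 32851 windows. Windows of a gene can overlap, and cores of Aldoa, Eno1 and Pfkm were counted in more than 1 window. A core in at least 1 window was found for 28 of the 31 genes, and the like share over all genes was not computed. A second window of Ldha held 1 more core. A relation between the number of cores and the response to injury was not tested. A match is a string of letters and not a measured binding site.

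Where a step is served by several genes, the form in use was compared per kilobase of transcript, which removes the difference in length. Hexokinase commits glucose to the cell, with Hk1 the housekeeping form and Hk2 the inducible one. In MuSC Hk2 went from 3.68, 0 and 1.57 CPM (19, 0 and 8 counts) to 33.0, 38.9 and 29.9 CPM (log2 4.08, SE 0.56, adjusted p = 4.51e-06), and Hk1 went from 88.7, 82.0 and 55.4 CPM to 36.0, 32.0 and 42.8 CPM (-1.02, SE 0.18, adjusted p = 8.5e-05). No library of the one condition reached the range of the other for either gene. Hk2 thus made 1.59 ± 1.44% of the summed Hk1 and Hk2 level per kilobase in uninjured MuSC and 39.2 ± 6.60% in injured MuSC.

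In MSC the Hk2 share went from 12.5 ± 3.68% to 40.8 ± 3.00%, where Hk2 rose (log2 2.06, SE 0.45) and Hk1 did not pass (-0.21, SE 0.18). CD45+ cells had the highest share before injury, 37.4 ± 8.85%, and 52.0 ± 3.13% after it, and their Hk2 change did not pass (0.95, SE 0.42, adjusted p = 0.0893) although the libraries did not overlap. It passed in limma voom (adjusted p = 0.00883). In CD31+ cells Hk1 rose from 121, 79.4 and 90.2 CPM to 138, 165 and 119 CPM (0.53, SE 0.18, adjusted p = 0.0307), with 1 uninjured library inside the injured range, and Hk2 had 0, 1 and 0 counts uninjured and 28, 2 and 3 counts injured. Hk2 passed in CD31+ (adjusted p = 0.0364), but not without injured replicate 1, the library with the 357 CPM of leukocyte markers (0.385), nor without uninjured replicate 1 (0.148), 2 (0.059) or 3 (0.109). Hk1 in CD31+ did not pass with RLE scaling (0.0888), with DESeq2 (0.0832), or without uninjured replicate 2 (0.163) or 3 (0.0994) or injured replicate 1 (0.0625) or 2 (0.159).

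**Figure D4:**
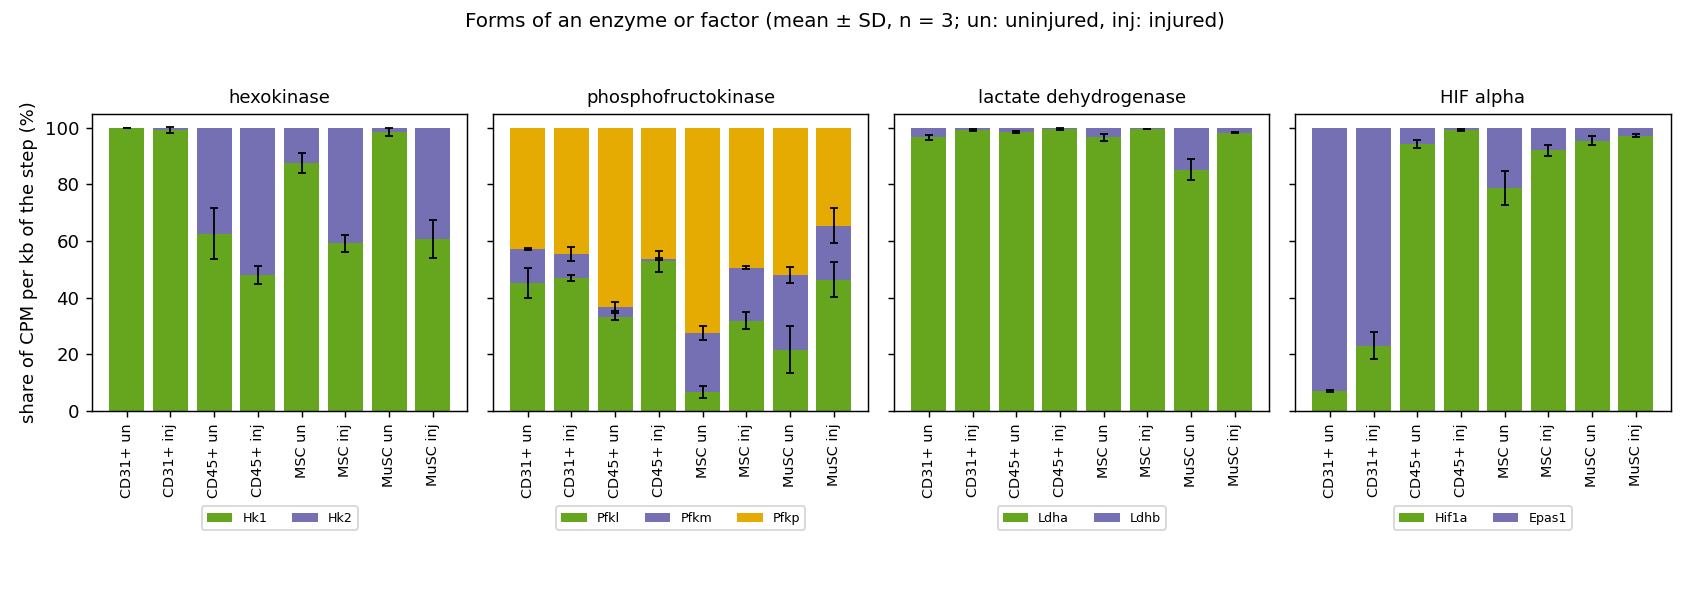
Share of each form (%, vertical axes) in the level per kilobase of hexokinase, phosphofructokinase, lactate dehydrogenase and the HIF alpha subunits, by population in uninjured (un) and injured (inj) libraries; stacked bars are means of 3 libraries and error bars are SD of the form whose upper edge they mark. Hexokinase here is Hk1 and Hk2 only, without Hk3, and the HIF alpha subunits are Hif1a and Epas1 only. Hk2 grows from 1.59% to 39.2% in MuSC, Pfkl from 6.59% to 31.9% in MSC, and Epas1 makes 93.1% in uninjured CD31+ cells.

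Phosphofructokinase, the main control point of the pathway, changed through its liver-type gene Pfkl. Pfkl rose from 13.9, 14.8 and 22.4 CPM to 72.0, 87.4 and 70.1 CPM in MSC (log2 2.17, SE 0.25), and also in MuSC (1.47, SE 0.24) and CD45+ (1.26, SE 0.23). In CD31+ cells it was already the highest of the uninjured populations, at 147, 138 and 141 CPM, and injured libraries held 147, 154 and 142 CPM (0.05, SE 0.23, adjusted p = 0.898). The response of CD31+ lay below the other 3 by 1.58 (adjusted p = 0.000467). The platelet-type Pfkp fell in MSC from 207, 222 and 201 CPM to 127, 127 and 141 CPM (-0.67, SE 0.15) and did not pass elsewhere. The muscle-type Pfkm fell in CD45+ from 6.88, 4.05 and 12.3 CPM to 2.02, 2.94 and 3.04 CPM (-1.52, SE 0.36, adjusted p = 0.00188; 0.055 in limma voom), while the muscle fiber genes there fell too, 10 of 13 tested. In MSC the Pfkl share went from 6.59 ± 2.11% to 31.9 ± 2.98% and the Pfkp share from 72.5 ± 0.480% to 49.5 ± 3.48%.

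Ldhb, the lactate dehydrogenase form of oxidative tissues, moved against Ldha in MuSC and CD31+. It fell in MuSC from 96.2, 63.7 and 72.5 CPM to 31.8, 38.7 and 34.8 CPM (log2 -1.14, SE 0.33, adjusted p = 0.00736) and in CD31+ from 14.0, 19.8 and 12.7 CPM to 7.38, 1.94 and 7.46 CPM (-1.44, SE 0.38, adjusted p = 0.00707). Without uninjured MuSC replicate 1 the MuSC change was -0.95 (adjusted p = 0.0523). In MSC Ldhb did not pass (-0.87, SE 0.37, adjusted p = 0.0613), but did with RLE scaling (0.0392) or without uninjured replicate 3 (0.0488). In CD45+ Ldhb did not pass (-0.27, adjusted p = 0.658 by edgeR), and the libraries overlapped. The Ldhb share of lactate dehydrogenase went from 14.8 ± 3.65% to 1.72 ± 0.169% in MuSC and was at most 3.46 ± 0.770% in any group of the other populations. The muscle fiber genes fell in MuSC as well, 10 of 13 tested, and 1, Eno3, rose.

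The minor forms Aldoc and Eno2 did not pass in any population by the edgeR test. Aldoc, the brain-type aldolase, was measured in CD45+ at 26.8, 30.7 and 24.6 CPM uninjured and 11.1, 11.8 and 6.54 CPM injured (-1.48, SE 0.62, adjusted p = 0.0749; 0.041 with no filter on low counts, 0.00261 in limma voom and 0.0023 with the 6 CD45+ libraries alone), without overlap, and had at most 8 counts in any library elsewhere. Eno2, the neuronal enolase, had its highest mean in uninjured MSC, at 6.87, 12.3 and 11.6 CPM. In MuSC it had 16, 14 and 9 counts uninjured and 0, 2 and 18 counts injured, and passed as lower when injured replicate 3 was left out (adjusted p = 0.00945) and in limma voom (0.0272).

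The 5 switches set how much glucose carbon runs through the pathway and whether pyruvate enters mitochondria. Pfkfb3 and Pfkfb4 make and break fructose 2,6-bisphosphate, the activator of phosphofructokinase. Pfkfb3 fell in CD31+ cells, from 56.8, 54.8 and 113 CPM to 46.6, 29.3 and 30.6 CPM (log2 -1.07, SE 0.31, adjusted p = 0.0143). That fall did not pass without uninjured replicate 3 (-0.64, adjusted p = 0.164), injured replicate 2 (-0.94, adjusted p = 0.0741) or injured replicate 3 (-0.96, adjusted p = 0.0624). In CD45+ cells Pfkfb3 was at 30.6, 39.3 and 49.8 CPM uninjured and 85.1, 69.1 and 45.1 CPM injured (0.74, SE 0.32, adjusted p = 0.0753), and the difference of CD45+ from the other 3 passed (1.15, SE 0.37, adjusted p = 0.025). The change within CD45+ passed in edgeR with no filter on low counts (adjusted p = 0.00251), and without uninjured replicate 3 (0.0395) or injured replicate 3 (0.0228).

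Pfkfb4 was highest in uninjured CD45+ cells, at 164, 139 and 195 CPM, against group means of 5.54 to 22.0 CPM in the other uninjured populations. It fell in MSC from 25.8, 19.7 and 20.4 CPM to 5.17, 10.9 and 5.03 CPM (-1.65, SE 0.29) and in MuSC from 17.8, 18.6 and 15.5 CPM to 9.97, 9.63 and 7.27 CPM (-0.95, SE 0.29, adjusted p = 0.012; 0.0634 without injured MuSC replicate 3). In CD45+ it was at 218, 231 and 209.5 CPM after injury, above every uninjured library, and did not pass (0.40, SE 0.24, adjusted p = 0.213; 0.00957 in limma voom).

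Pdk1 and Pdk4 are kinases that switch off pyruvate dehydrogenase, and Pdha1 is a subunit of that enzyme. Pdk1, which HIF is known to induce, fell in MuSC from 7.74, 4.07 and 9.23 CPM to 2.38, 2.73 and 1.43 CPM (-1.72, SE 0.44, adjusted p = 0.00331). Its injured MSC libraries, at 4.89, 5.30 and 5.57 CPM, also lay below the uninjured ones at 9.38, 9.86 and 8.66 CPM, but did not pass (-0.82, SE 0.40, adjusted p = 0.108; 0.0485 with the 6 MSC libraries alone). Pdk4, which is induced by fasting and fat use, fell in MSC from 25, 5 and 12 counts to 1, 3 and 0 counts (adjusted p = 0.00459). In CD45+ Pdk4 had 2, 4 and 0 counts uninjured and 0 in each injured library (adjusted p = 0.079; 0.0442 with DESeq2 and 0.0489 without uninjured replicate 3). In MuSC Pdk4 was at 9.68, 3.73 and 17.7 CPM uninjured and 4.46, 8.51 and 4.93 CPM injured, with overlap. Pdha1 rose in CD45+ (0.69, SE 0.13), MSC (0.41, SE 0.12) and MuSC (0.41, SE 0.12), and was 0.16 (SE 0.13, adjusted p = 0.405) in CD31+.

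Among the genes of oxygen sensing, Hif1a rose everywhere. It encodes the HIF alpha subunit found in most cells, whose protein is set mainly by degradation. In CD45+ it went from 77.1, 78.1 and 87.3 CPM to 455, 505 and 466 CPM (log2 2.56, SE 0.18, adjusted p = 1.76e-10). In CD31+ it went from 108, 92.1 and 103 CPM to 279, 265 and 183 CPM (1.26, SE 0.17), and it rose by 1.26 (SE 0.17) in MSC and 1.01 (SE 0.17) in MuSC. No injured library overlapped an uninjured one in any population. The CD45+ rise was larger than the mean of the other 3 by 1.38 (SE 0.20, adjusted p = 1.01e-05).

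Epas1 encodes HIF-2 alpha, the subunit known from endothelium. It stood at 1786, 1372 and 1657 CPM in uninjured CD31+ cells and fell to 884, 966 and 987 CPM (log2 -0.76, SE 0.17, adjusted p = 0.00157). Every other group had a mean of 2.64 to 26.0 CPM. As Hif1a rose and Epas1 fell, the Epas1 share of the 2 subunits per kilobase went from 93.1 ± 0.336% to 77.0 ± 4.70% in CD31+, and Epas1 stayed the larger of the 2 there. The endothelial markers summed to 11280 to 12454 CPM in uninjured and 9233 to 9845 CPM in injured CD31+ cells, and 1 of 8, Kdr, fell.

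The prolyl hydroxylases Egln1 and Egln3 tag HIF alpha subunits for destruction, and Egln3 is itself a HIF target. Egln3 went from 0.949, 0.289 and 1.43 CPM (4, 1 and 5 counts) to 26.8, 38.0 and 35.0 CPM in CD45+ (log2 5.18, SE 0.57, adjusted p = 2.62e-07), the largest rise of any member there. In MuSC it went from 3.87, 2.71 and 2.75 CPM to 12.6, 10.1 and 9.35 CPM (1.76, SE 0.47, adjusted p = 0.00472). In CD31+ and MSC it was at most 5.89 CPM in any library and did not pass. Egln1 fell in CD31+ from 66.5, 54.2 and 56.6 CPM to 24.2, 15.5 and 21.7 CPM (-1.53, SE 0.28, adjusted p = 0.000181), and elsewhere its change was -0.42 to -0.64 and did not pass, except in MSC with RLE scaling (adjusted p = 0.0438) or with DESeq2 (0.0337).

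Among the glycolytic steps, Gpi1, Aldoa, Tpi1, Gapdh, Pgk1, Pgam1, Eno1, Pkm and Ldha rose in every population. The size of the rise differed between populations for each of them but Pgk1. Only Hk1 passed in opposite directions among the steps, higher in CD31+ and lower in MuSC. The 8 hypoxia targets split by population in the direction of change. In CD45+ cells 5 of 8 rose (Ankrd37, Bnip3, Hilpda, Ndrg1 and P4ha1). In CD31+ and in MSC the same 4 fell, Ankrd37, Bnip3, Bnip3l and Ndrg1, and the other 4 did not pass in either. In MuSC Hilpda and P4ha1 rose and Bnip3l and Ndrg1 fell. Over the 8 genes the median log2 fold change was -0.18, 0.88, -0.76 and -0.49 for CD31+, CD45+, MSC and MuSC. Over all genes tested it was -0.04, -0.12, -0.22 and -0.04.

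Hilpda, an inhibitor of lipid droplet breakdown, had the largest change of the 8. It went from 14.7, 21.4 and 9.73 CPM to 174, 253 and 136 CPM in CD45+ (log2 3.62, SE 0.25, adjusted p = 1.47e-10) and from 30.8, 23.0 and 28.7 CPM to 50.7, 65.2 and 61.1 CPM in MuSC (1.09, SE 0.22, adjusted p = 0.000399). CD31+ (0.35, SE 0.23) and MSC (0.44, SE 0.22) did not pass, although each injured library lay above each uninjured one. In edgeR, Hilpda passed in MSC with no filter on low counts (adjusted p = 0.00826) or with the 6 MSC libraries alone (0.00982). It also passed there without uninjured replicate 2 (0.0356) or injured replicate 1 (0.0461). The CD45+ response exceeded the mean of the other 3 by 2.99 (SE 0.27, adjusted p = 2.17e-08).

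Bnip3 and Bnip3l are receptors on mitochondria that lead to their removal by autophagy. Bnip3 fell in CD31+ from 23.8, 25.7 and 31.2 CPM to 13.5, 14.0 and 13.5 CPM (-0.97, SE 0.21, adjusted p = 0.00144) and in MSC from 25.8, 27.1 and 21.1 CPM to 6.43, 9.28 and 5.93 CPM (-1.77, SE 0.22, adjusted p = 7.13e-07). It rose in CD45+ from 16.8, 15.9 and 18.3 CPM to 29.8, 32.8 and 30.4 CPM (0.86, SE 0.22, adjusted p = 0.00301). The libraries did not overlap in these 3 populations, and Bnip3 did not pass in MuSC (-0.43, SE 0.23, adjusted p = 0.144; 0.0446 with DESeq2 and 0.0491 without uninjured replicate 2). An antisense gene, Gm45507, overlaps 22.3% of the exon bases of Bnip3, and the counting is not stated to use strand. Bnip3l fell by 1.08, 1.01 and 1.07 in CD31+, MSC and MuSC. It was lower in every injured CD45+ library without passing (-0.48, SE 0.19, adjusted p = 0.0571; 0.0494 with DESeq2 and 0.0289 with the 6 CD45+ libraries alone).

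Ndrg1, a stress gene induced by low oxygen and by differentiation, gave the smallest p of the 34 for a difference between populations. It went from 355, 337 and 316 CPM to 82.0, 94.6 and 83.5 CPM in MuSC (-1.96, SE 0.16, adjusted p = 1.49e-09). In MSC it fell from 135, 133 and 150.4 CPM to 55.2, 91.7 and 84.3 CPM (-0.86, SE 0.16), and in CD31+ from 487, 408 and 514 CPM to 319, 354 and 283 CPM (-0.56, SE 0.16, adjusted p = 0.0106). In CD45+ it rose from 33.2, 34.1 and 47.2 CPM to 75.8, 75.7 and 56.5 CPM (0.86, SE 0.17, adjusted p = 0.000377). The CD31+ fall did not pass without uninjured replicate 3 (adjusted p = 0.0559), without injured replicate 3 (0.0614) or with no filter on low counts (0.0593) in edgeR.

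Ankrd37, a small ankyrin repeat protein, was near the threshold in every population where it passed. Its change was -1.08 (SE 0.35, adjusted p = 0.0269) in CD31+, 0.95 (SE 0.35, adjusted p = 0.0397) in CD45+ and -1.58 (SE 0.48, adjusted p = 0.00963) in MSC, where group means were 2.70 and 0.867 CPM. The CD31+ call was lost without uninjured replicate 1 or 3 or injured replicate 2 or 3 (adjusted p 0.0585 to 0.133). The CD45+ call was lost without any 1 of its libraries other than injured replicate 3 (adjusted p 0.0702 to 0.11), and the MSC call without uninjured replicate 1 (0.0735) or injured replicate 3 (0.053). With no filter on low counts Ankrd37 passed in none of the 3 (adjusted p 0.0617 to 0.147). Ankrd37 shares 22.7% of its exon bases with Lrp2bp on the opposite strand.

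P4ha1 and P4ha2 are the catalytic subunits of collagen prolyl 4-hydroxylase, which collagen needs to fold. P4ha1 rose in CD45+ from 70.7, 52.9 and 46.7 CPM to 199.9, 167 and 122 CPM (1.52, SE 0.18), and in MuSC from 58.1, 62.4 and 55.6 CPM to 81.1, 91.9 and 88.1 CPM (0.57, SE 0.18, adjusted p = 0.014). In CD45+ the 8 stromal markers summed to 435 to 549.9 CPM uninjured and 1027 to 1283 CPM injured. Of these 8, only Gsn passed as higher, and values of 0 went from 1 of 24 to 7 of 24. The part of stromal transcripts in the P4ha1 change was not tested. P4ha2 passed in none of the 4, yet its injured libraries were all above the uninjured ones in CD31+ (0.77, SE 0.31, adjusted p = 0.0763) and all below them in MSC and MuSC. It passed in CD31+, MSC and MuSC with limma voom (adjusted p = 0.00561, 0.000176 and 0.0103). In CD45+ it had 27, 26 and 6 counts uninjured and 6, 1 and 27 counts injured, and passed as lower without injured replicate 3 (adjusted p = 0.00188). Ddit4, an inhibitor of mTORC1 signaling, did not pass in edgeR with the filter on low counts (in CD45+ without that filter, adjusted p = 0.0348), and its uninjured MuSC libraries ranged from 5.08 to 29.8 CPM.

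The second question was how the populations differed before injury, counting a gene as highest when it passed against each of the other 3. CD31+ was highest for 6 members (17.6%, against 9.92% of all genes) and CD45+ for 7 (20.6% against 13.7%). MSC was highest for 3 (8.82% against 9.09%) and MuSC for 5 (14.7% against 7.88%). The MSC count was thus near the share of all genes. The CD31+ set held the oxygen-sensing genes Epas1 and Egln1 with Bnip3l, Ndrg1, Pfkfb3 and Pfkl. The CD45+ set held Eno1, Gpi1, Ldha, Hk2, Aldoc, Pdk1 and Pfkfb4, the MuSC set Aldoa, Gapdh, Pkm, Ldhb and Pdk4, and the MSC set P4ha1, P4ha2 and Pdha1.

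Sizes within these sets ran from small to very large. Epas1 in CD31+ exceeded MSC, the next population, by 5.94 on the log2 scale (adjusted p = 4.77e-16), while Ldha in CD45+ exceeded MuSC by only 0.25 (adjusted p = 0.0348). P4ha1, at 394, 341 and 346 CPM in MSC, exceeded CD31+ by 2.29, and P4ha2, at 363, 279.8 and 310.3 CPM, by 2.32. For Ldha the order below CD45+ was MuSC, CD31+ and MSC, and those 3 did not differ from each other by this test (adjusted p 0.0564 to 0.645). For Pkm the order was MuSC, CD45+, MSC and CD31+, with MuSC above CD45+ by 0.30 (adjusted p = 0.031). Without uninjured CD31+ replicate 3 the CD31+ count was 3, and without uninjured MuSC replicate 3 the MuSC count was 3.

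The third question was which members responded differently by population. An F test over the 4 injury effects passed for 23 of the 34, against 35.9% of all genes tested. Compared with the mean of the other 3 populations, the response of CD31+ differed for 11 members (9.28% of all genes), that of CD45+ for 18 (25.7%), that of MSC for 11 (14.7%) and that of MuSC for 12 (13.5%). The share was above the background in each case. In CD31+, 9 of the 11 had the lower response, Egln3, Eno1, Gpi1, Hilpda, Ldha, Pfkfb3, Pfkl, Pgam1 and Tpi1, and Hk1 and P4ha2 the higher one. In CD45+, Gpi1, Hk2, Ldha and Pfkm had a lower response than elsewhere and the other 14 a higher one. Of the 11 in MSC, Gpi1, Ldha and Pfkl were higher and Aldoa, Ankrd37, Bnip3, Egln3, Hilpda, P4ha1, Pfkfb4 and Pfkp lower. Of the 12 in MuSC, Aldoa, Gapdh, Hif1a, Hk1, Ndrg1, Pdk1 and Pkm were lower and Eno1, Gpi1, Ldha, Pgam1 and Tpi1 higher.

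Genes downstream of pyruvate and beside the pathway were counted from lists of other genes. The citric acid cycle list rose with the glycolytic steps. In it 11, 8, 14 and 11 of 16 genes were higher in CD31+, CD45+, MSC and MuSC. Of all genes tested, 14.1%, 16%, 18.3% and 21.4% rose. In CD45+ 2 of the 16, Fh1 and Idh3g, were lower, where 18.5% of all genes fell. Mdh2, malate dehydrogenase, rose by 0.98, 1.25, 1.38 and 1.60 on the log2 scale in CD31+, CD45+, MSC and MuSC, and Idh3a, of isocitrate dehydrogenase, by 1.39, 0.95 and 1.30 in the first 3 and from 109 ± 7.68 to 307 ± 36.8 CPM in MuSC. Of 11 genes around pyruvate dehydrogenase, Dlat and Dld, which encode catalytic subunits, rose in all 4 populations. Over all genes tested, 5.01% did so. Pdk2, a kinase that inhibits the enzyme, fell in all 4, from 128 ± 8.13 to 35.5 ± 4.58 CPM in MuSC (-1.86, SE 0.25) and by 1.25, 2.17 and 1.81 in CD31+, CD45+ and MSC.

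In the pentose phosphate pathway, which makes NADPH and ribose, 5, 4, 2 and 4 of 7 genes rose in CD31+, CD45+, MSC and MuSC. Over all genes tested 14.1%, 16%, 18.3% and 21.4% rose, and the 2 of 7 in MSC lie nearest to their share. Tkt, transketolase, rose by 1.78 (SE 0.11) in MuSC, from 32.8 ± 1.55 to 113 ± 12 CPM, and by 0.53 to 0.57 in the other populations. Of 24 further hypoxia response genes, 4 rose and 2 fell in CD31+ and 8 rose and 2 fell in CD45+, while for MSC 8 rose and 8 fell and for MuSC 8 rose and 7 fell. For CD31+ these shares lie near the 14.1% and 9.3% of all genes given above. Slc2a1, the glucose transporter GLUT1, rose in all 4 populations, by 2.28 (SE 0.29) in CD45+ and 1.77 (SE 0.32) in MuSC. Kdm3a, a histone demethylase induced by HIF, fell by 1.05 in CD31+ and 1.78 in MSC, and also fell in MuSC. Insig2, a sterol sensor, fell in MSC (adjusted p = 4.38e-06) and by 1.53 in MuSC. Of 14 tested among 20 other glycolysis and lactate transport genes, 1 rose in CD31+, 4 rose and 3 fell in CD45+, MSC had 3 higher and 2 lower, and MuSC had 4 higher and 2 lower. The 3 of 14 that rose in MSC and the 4 of 14 in MuSC are near the 18.3% and 21.4% of all genes. The 3 of 14 that fell in CD45+ and the 2 of 14 in MuSC are near the 18.5% and 17.5%. Slc16a1, the lactate transporter MCT1, rose by 1.80 (SE 0.30) in MSC and 1.85 (SE 0.30) in MuSC, and also rose in CD45+.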

How the data were processed

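The file deposited by the authors holds raw counts of reads for each gene symbol in 24 libraries. STAR 2.5.4, featureCounts and the build mm10 are named per the submitters' processing notes. Which version of featureCounts was run, whether it used strand, how it treated reads with several matches and with which annotation is not given in the sources used here. Libraries were primed with anchored oligo(dT), fragmented with Nextera XT and read as pairs of 25 bases, per the labels' protocols, without molecular identifiers. Values of genes with near-identical copies are uncertain to the extent that reads were shared. Rows for named copies held 0.0266% to 2.31% of their member's counts. These rows do not show how many shared reads were left uncounted.

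Counts entered edgeR 4.0.16 (R 4.3.3, limma 3.58.1) with its filter over the 8 groups, TMM scaling and 1 mean per group in all 24 libraries (16 residual degrees of freedom, common biological coefficient of variation 0.224). The quasi-likelihood test with Benjamini-Hochberg adjustment over all 16263 genes gave the adjusted p-values, with 0.05 as threshold. CPM used TMM-scaled library sizes. The fit was tested on simulated data. No 2 libraries of a group agreed within counting noise (lowest chi-square per degree of freedom 5.14). All 34 genes are accounted for. From each other list, up to 3 genes with the smallest adjusted p and at least 20 CPM in the higher group were eligible for naming per population. The members and lists were chosen with earlier results of these data known. Alternatives were RLE scaling, no filter, DESeq2 1.42.0, limma voom, a replicate block, each population's own 6 libraries and each library left out. Shares per kilobase used the longest principal transcript in the GRCm38 annotation. The count of genes that rose in all 4 populations was added to the alternatives after the data were seen.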

Additional observations from a re-analysis of the deposited data

Results flagged for a closer look

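For 23 of the 34 genes the response to injury differed between the 4 populations by edgeR's F test on 3 degrees of freedom with Benjamini-Hochberg adjustment. The adjusted p was 5.05e-08 for Ndrg1, 6.57e-08 for Ldha, 1.15e-07 for Hilpda and 9.47e-07 for Eno1. It was 2.65e-06 for Aldoa, 2.83e-06 for Egln3, 4.05e-06 for Bnip3, 4.13e-06 for Tpi1, 6.72e-06 for Pkm and 1.39e-05 for Gpi1. It was 5.96e-05 for P4ha1, 6.08e-05 for Hif1a, 0.000146 for Pgam1, 0.000266 for Gapdh, 0.000276 for Pfkl, 0.000301 for Hk1 and 0.000981 for Pfkfb4. It was 0.00214 for Ankrd37, 0.00811 for Hk2, 0.00994 for Pfkfb3, 0.0161 for Pfkp, 0.0242 for P4ha2 and 0.0286 for Pdk1. Ndrg1 and Bnip3 rose in CD45+ cells and fell in CD31+ and MSC, so their responses had opposite signs. Groups of 3 libraries are too small for a test of single outlying libraries.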

How the results depend on the processing

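Of the single-gene changes under the alternatives, 1539 kept their side of the threshold, 43 lost it and 40 gained it, and no direction changed among the calls. The count of members that fell in CD45+ was 1, and became 2 with no filter on low counts, 3 with DESeq2 and 3 with only the 6 libraries of CD45+. Leaving out 1 library at a time gave 1 to 2 for that count (2 without uninjured or injured CD45+ replicate 3), and 5 to 8 for falls in CD31+ (5 without uninjured or injured CD31+ replicate 3). It gave 3 to 7 for members highest in uninjured CD31+, 3 to 5 for those highest in uninjured MuSC, and 8 to 10 for the 10 that rose in all 4 populations. With the replicate block the members higher and lower numbered 12 and 8 for CD31+, 18 and 1 for CD45+, 13 and 7 for MSC, and 16 and 6 for MuSC, as without it. Deviations from the group means of same-numbered uninjured and injured libraries of a population correlated between -0.08 and 0.07, and those of other numbers between -0.09 and 0.10. Between populations, same-numbered libraries of a condition correlated between -0.01 and 0.13 (medians 0.0178 uninjured and 0.0246 injured). Those of other numbers correlated between -0.13 and 0.04 (medians -0.0106 and -0.0121). Same-numbered libraries were thus slightly more alike in the median, and these values cannot tell whether they came from the same mouse. The numbers were not taken as pairs, since not every pair was over 0.1. Comparisons between populations therefore treat the libraries as independent. Under RLE scaling the median over all genes went, on the log2 scale, from -0.04 to -0.14 in CD31+ and by less elsewhere (MSC -0.22 to -0.30, MuSC -0.04 to -0.13), and gave MSC 13 higher and 10 lower members. Depth limits Aldoc outside CD45+, Eno2, Pdk4 and Hk2 in CD31+, and the sizes of the changes of Egln3 in CD45+ and Hk2 in MuSC, whose low groups lie near the 3-count limit.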

Other observations

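Levels per kilobase were compared among the members within a population. That order is uncertain where reads are shared with near-identical copies, since the handling of reads with several matches is not given. Aldoa led in all 4 uninjured populations, at 404 ± 18.6, 524 ± 5.38, 632 ± 47.4 and 921 ± 24 CPM per kilobase in CD31+, CD45+, MSC and MuSC (SD, n = 3). After injury Ldha led in MSC (1432 ± 98.3) and MuSC (1541 ± 56.6), and Pkm led in CD45+ (1609.9 ± 134). In CD31+ Aldoa (644 ± 79.3) and Ldha (594 ± 41.4) differed by less than the SD of Aldoa. In uninjured CD31+ cells Epas1 (291 ± 38.3) stood near Ldha (331 ± 7.83), and it was the only transcription factor gene among the 6 highest members of any group.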
